A study of Mus musculus with 8 samples.

Results

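Sst interneurons of the Lhx6 lineage are inhibitory cells of the hippocampus that release GABA together with the neuropeptide somatostatin. Here they were taken from single nuclei by a fixed rule on raw counts of unique molecular identifiers (UMIs), each UMI standing for 1 captured RNA molecule. A nucleus was kept with 500 to 7000 detected genes, under 2% mitochondrial UMIs and 1000 to 70000 counts in accessible chromatin. It was called an Sst-Lhx6 nucleus when Gad1 and Gad2 together had at least 3 UMIs, Lhx6 at least 1, Sst at least 3 and Slc17a7 at most 1. This rule found 56 nuclei among 621 GABA nuclei (at least 3 Gad1 and Gad2 UMIs, at most 1 of Slc17a7) and among 11518 retained of 14297 deposited nuclei. The 565 GABA nuclei that missed the rule served as the comparison, and 68 of them with Lhx6 and no Sst UMI formed a closer one. Among the 565 were also 87 with at least 3 Sst UMIs and no Lhx6 UMI, so the wider comparison holds Sst nuclei too.

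The nuclei came from the hippocampus of wild-type male pups at postnatal day 21, born to C57BL/6J dams. Dams, 8 weeks old, ate folic acid at 2 mg/kg of diet (MF, the conventional level) or 20 mg/kg (HF, the excess) from before mating through lactation. RNA and accessible chromatin were read from the same nuclei with a droplet multiome assay, in 2 libraries for each diet. The libraries are named MF1, MF2, HF1 and HF2, and how many pups entered each was not stated. All groups share the strain, age, sex and tissue, and the diet is the single labelled difference between them. The p-values below measure the spread between libraries, which may be partly technical.

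Interneurons that express Lhx6 are born in the medial ganglionic eminence (MGE), where this LIM-homeodomain factor acts downstream of Nkx2-1 and keeps the cells on the path to the Sst and Pvalb types. Cells of the caudal ganglionic eminence (CGE) instead give the Vip, Cck and many Lamp5 types and are marked by Adarb2. In the hippocampus, Sst cells of the stratum oriens and the dentate hilus target the distal dendrites of excitatory cells and are driven strongly by local excitatory input. Gad1 and Gad2 encode the enzymes that make GABA, and Slc17a7 encodes the vesicular glutamate transporter of excitatory neurons.

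The Sst-Lhx6 nuclei numbered 12 (MF1), 11 (MF2), 17 (HF1) and 16 (HF2). They held 5860 to 31101 UMIs each with a median of 12394, against a median of 10648 in the other GABA nuclei, and their library sums ran from 140461 to 271717 UMIs. Their chromatin counts had a median of 23408.5 a nucleus, against 22220 in the others. The pairwise correlation of log CPM (counts scaled to a fixed total per library) between the libraries' sums, over 4118 genes and as a description, ran from 0.79 to 0.88. Of the 14297 deposited barcodes, 111 occurred in more than 1 library. Scrublet gave 10 of the 56 nuclei a doublet score over 0.05, compared with 90 of the 565 others, and no nucleus was removed for it.

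The nuclei were chosen by their Sst, Lhx6, Gad1, Gad2 and Slc17a7 counts, so these levels are a description. Sst reached 10 to 92 UMIs a nucleus in MF1 (median 38), 3 to 48 in MF2 (median 17), 3 to 102 in HF1 (median 27) and 5 to 72 in HF2 (median 10). These ranges overlapped in all 4 libraries. Lhx6 was sparse, with 1 UMI in 37 nuclei and at most 5, so the gate rested on a single Lhx6 molecule in most of them. Gad2 had 1 to 19 UMIs with a median of 5, and Slc17a7 was 0 in 41 nuclei and 1 in 15. Near the thresholds, 8 GABA nuclei with Lhx6 had 2 Sst UMIs, 2 had 3 and none had 4. A further 87 GABA nuclei had at least 3 Sst UMIs and no Lhx6 UMI, and they are counted among the other GABA nuclei. Sst UMIs were also read in excitatory nuclei, since 28.7% of 1900 nuclei with at least 3 Slc17a7 UMIs and no Gad UMI (median 13657.5 UMIs) had an Sst UMI, and 1.47% of them had 3 or more. The source of these UMIs was not tested. Lhx6 was found in 0.526% of those excitatory nuclei. The Sst promoter is shown because the gene names the cells and carries the palindrome (capitals) that the cyclic AMP response factor CREB is known to bind, 48 bases before the RefSeq start (chr16:23890874-23890903, minus strand, GRCm38.p6).
Sst promoter, 5′ to 3′: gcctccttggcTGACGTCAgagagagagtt
The 8 letters TGACGTCA, searched on both strands, stood in 1.55% of 32851 RefSeq promoters of 250 bases.

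**Figure D1:**
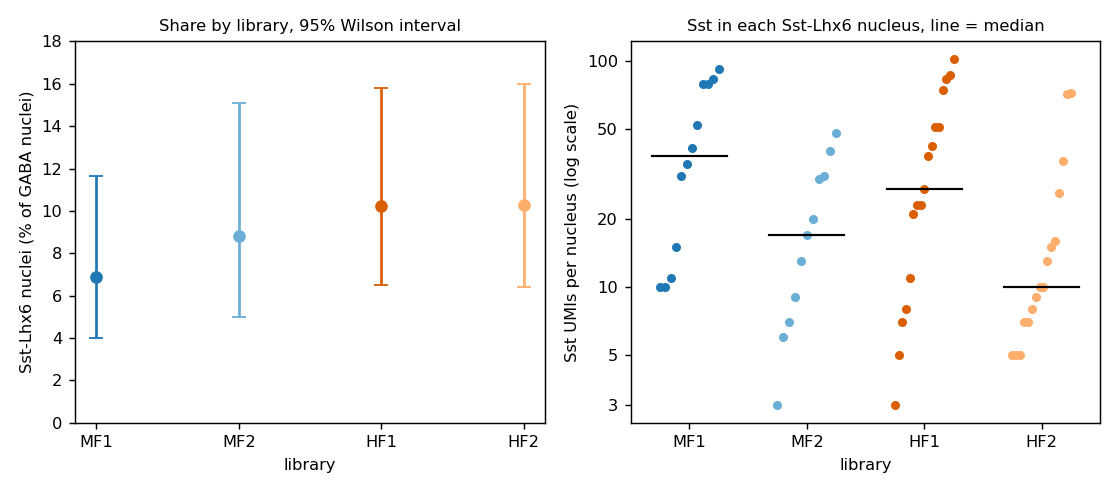
Left, Sst-Lhx6 nuclei as a percentage of GABA nuclei in each library with the 95% Wilson interval. Right, Sst UMIs in each of the 56 nuclei on a log scale, with the library median as a line. The intervals of all 4 libraries overlap, and HF2 has the lowest median Sst count, 10.

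The share of these cells among GABA nuclei addressed whether the diet changed their number. It was 6.90% in MF1 (95% Wilson interval 3.99 to 11.7), 8.80% in MF2 (4.98 to 15.1), 10.2% in HF1 (6.49 to 15.8) and 10.3% in HF2 (6.41 to 16.0), intervals that cover counting error only. Both HF libraries were above both MF libraries, and every interval overlapped every other. The mean was 10.2% ± 0.0109 (SD, n = 2) in HF and 7.85% ± 1.35 (SD, n = 2) in MF, a difference of 2.40 percentage points. The exact two-sided permutation test gave p = 0.333, the smallest value that 2 libraries against 2 allow. Among all retained nuclei the share was 0.414% (MF1), 0.489% (MF2), 0.489% (HF1) and 0.552% (HF2), a difference of 0.0694 points (exact permutation p = 0.333). That small difference changed sign when nuclei with a Scrublet score over 0.05 were left out (-0.0201 points) and when Lhx6 was not required (-0.0478 points). The separation of the diets among GABA nuclei ended, with an exact permutation p = 0.667, without Scrublet scores over 0.05 (a difference of 1.46 points), without nuclei of 20 or more astrocyte UMIs (1.47 points), with 1 Sst UMI required (1.34 points) and with Lhx6 not required (2.37 points). Without MF1 the difference was 1.45 points. With all nuclei thinned to 3000 UMIs only 7 nuclei met the rule, and the difference among GABA nuclei was -0.242 points.

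The other genes of the same nuclei showed what else set them apart. Counts were summed over nuclei of a library, members and others separately, and compared with edgeR's quasi-likelihood test with the library as a block. A gene was called at a Benjamini-Hochberg adjusted p under 0.05 and at least 1.2-fold, and the 5 rule genes were left out of the calls. Of 8980 genes tested, 100 were higher in Sst-Lhx6 nuclei (1.11%) and 177 lower (1.97%). The total of 277 was 166 without HF1, 167 without HF2, 179 without the library block and 82 against an equal number of nuclei matched on UMIs. With Lhx6 not required, the 87 Sst nuclei without an Lhx6 UMI moved from the comparison to the Sst group. Then 404 genes were called, of which 242 were among the 277. The differences were thus not shown to be particular to Sst nuclei with an Lhx6 UMI. Against matched nuclei only 3836 genes were tested. Of the 63 called genes named or on the lists, 26 kept the call there, 18 lost it and the rest were not tested. A gene that an alternative did not test is not among the lost calls given below. The 12 genes with the largest increases held signalling, adhesion and transcription factor genes. Gna14, a G protein alpha subunit of the Gq family, stood at 28.8, 56.96, 92.0 and 111 CPM in MF1, MF2, HF1 and HF2, against 15.3, 13.6, 13.7 and 10.7 CPM in the other GABA nuclei. All 4 libraries of Sst-Lhx6 nuclei lay above all 4 of the others (log2 fold change 2.44, SE 0.35, adjusted p = 0.00016). It was detected in 19 of the 56 nuclei, and 1 nucleus held 17.2% of its UMIs. Crhbp, the binding protein of corticotropin-releasing hormone, had 121, 71.2, 114 and 89.6 CPM against 40.3, 29.3, 23.5 and 11.9 CPM. Its groups did not overlap either (log2 fold change 2.00, SE 0.27, adjusted p = 0.00011). Elfn1, a postsynaptic adhesion protein that recruits metabotropic glutamate receptors to excitatory inputs of Sst cells, had 51.8, 192, 155 and 175 CPM against 39.8, 43.6, 42.7 and 27.9 CPM. MF1 was the lowest of the 4 and was still above every library of the others (log2 fold change 1.87, SE 0.26, adjusted p = 0.00012).

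Olfm3, a secreted olfactomedin, averaged 618 ± 147 CPM (SD, n = 4) in Sst-Lhx6 nuclei and 169 ± 32.6 CPM in the others (log2 fold change 1.85, SE 0.16, adjusted p = 4.5e-07). Trpc6, a cation channel, averaged 394 ± 48.1 CPM against 107 ± 13.3 CPM (log2 fold change 1.87, SE 0.16, adjusted p = 4.5e-07), and 46 of the 56 nuclei had a UMI of it. Lypd6 and Lypd6b, small membrane-anchored proteins known to bind nicotinic acetylcholine receptors, were both higher. Lypd6b averaged 141 CPM against 39.3 CPM (log2 fold change 1.82, SE 0.20, adjusted p = 1.2e-05), and Lypd6 121 against 35.9 CPM (log2 fold change 1.74, SE 0.26, adjusted p = 0.00031). The zinc finger transcription factor Klf5 averaged 92.5 against 28.3 CPM (log2 fold change 1.77, SE 0.27, adjusted p = 0.00033). Sema3a, a secreted guidance cue, stood at 40.3, 35.6, 155 and 46.9 CPM, high in HF1 alone, against 20.6 CPM on average in the others (log2 fold change 1.79, SE 0.37, adjusted p = 0.0071). Lrtm1, a leucine-rich repeat membrane protein, averaged 39.9 against 10.3 CPM (log2 fold change 1.93, SE 0.37, adjusted p = 0.003). It lies inside Cacna2d3 on the opposite strand, and whether counting used strand was not given in the sources used here. D430019H16Rik had the lowest log2 fold change of the 12 (log2 fold change 1.68, SE 0.44, adjusted p = 0.042). Calls were lost without HF1 for Lrtm1, Sema3a and D430019H16Rik (adjusted p = 0.066, 0.37 and 0.09), without HF2 for D430019H16Rik (adjusted p = 0.2), without MF1 for D430019H16Rik (adjusted p = 0.14), and without MF2 for D430019H16Rik (adjusted p = 0.15). Calls also ended with Lhx6 not required for D430019H16Rik (adjusted p = 0.055), with at least 5 Sst UMIs required for D430019H16Rik (adjusted p = 0.063), against nuclei matched on UMIs for Crhbp (adjusted p = 0.095), with no low-count filter for D430019H16Rik (adjusted p = 0.069), without nuclei with a Scrublet score over 0.05 for Sema3a (adjusted p = 0.09) and without nuclei of 20 or more astrocyte UMIs for D430019H16Rik (adjusted p = 0.09).

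The genes that were lowest in Sst-Lhx6 nuclei were mostly near absent from them. Frem1, an extracellular matrix protein, had no UMI in any of the 56 nuclei and 99.4, 88.0, 106 and 67.6 CPM in the others. Against a floor of 3 counts over the group it was at least 24.7-fold lower. Adarb2, an RNA-editing relative that marks CGE interneurons, had 132, 49.8, 40.5 and 145 CPM in MF1, MF2, HF1 and HF2, against 4128, 5222, 4717 and 4846 CPM in the others. The groups were far apart (log2 fold change -5.73, SE 0.25, adjusted p = 3e-11), and the remaining Adarb2 UMIs sat in 10 nuclei. Lamp5, a membrane protein that marks neurogliaform cells, had 1 UMI in the 56 nuclei and 63.1, 34.3, 41.6 and 38.0 CPM in the others (36.8-fold lower, 95% counting interval 6.55 to 1457, adjusted p = 0.00011). Pde11a, a phosphodiesterase of both cyclic nucleotides, had 0, 7.12, 3.68 and 12.8 CPM against 209, 132, 117 and 170.3 CPM (log2 fold change -4.65, SE 0.38, adjusted p = 3.1e-07). Kit, a receptor tyrosine kinase of several GABA types, had 2 UMIs in all and averaged 48.6 CPM in the others (19.9-fold lower, 95% counting interval 5.45 to 165, adjusted p = 0.00016). Mctp2, a calcium-binding C2-domain protein, also had 2 UMIs (27.8-fold lower, 95% counting interval 7.65 to 230.1, adjusted p = 1.2e-05). Cadps2, which primes dense-core vesicles, was lower in all 4 libraries, at a mean of 26.6 against 293 CPM (log2 fold change -3.45, SE 0.28, adjusted p = 3.1e-07). Chsy3, a chondroitin sulphate synthase, averaged 44.4 against 419 CPM (log2 fold change -3.33, SE 0.23, adjusted p = 3.1e-08). Egfr, the receptor of epidermal growth factor, averaged 14.6 against 119 CPM (log2 fold change -3.02, SE 0.35, adjusted p = 1.6e-05). The homeodomain factor Meis2 (log2 fold change -3.21, SE 0.49, adjusted p = 0.00033), the vesicle protein Sv2c (log2 fold change -3.04, SE 0.48, adjusted p = 0.00046) and the transcript 4930447N08Rik, with 1 UMI (18.1-fold lower, 95% counting interval 3.19 to 719, adjusted p = 0.0089), completed the list. A call was lost without HF1 for 4930447N08Rik (adjusted p = 0.094), and without HF2 for 4930447N08Rik (adjusted p = 0.075). Calls also ended without the library block for Meis2 (adjusted p = 0.059).

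**Figure D2:**
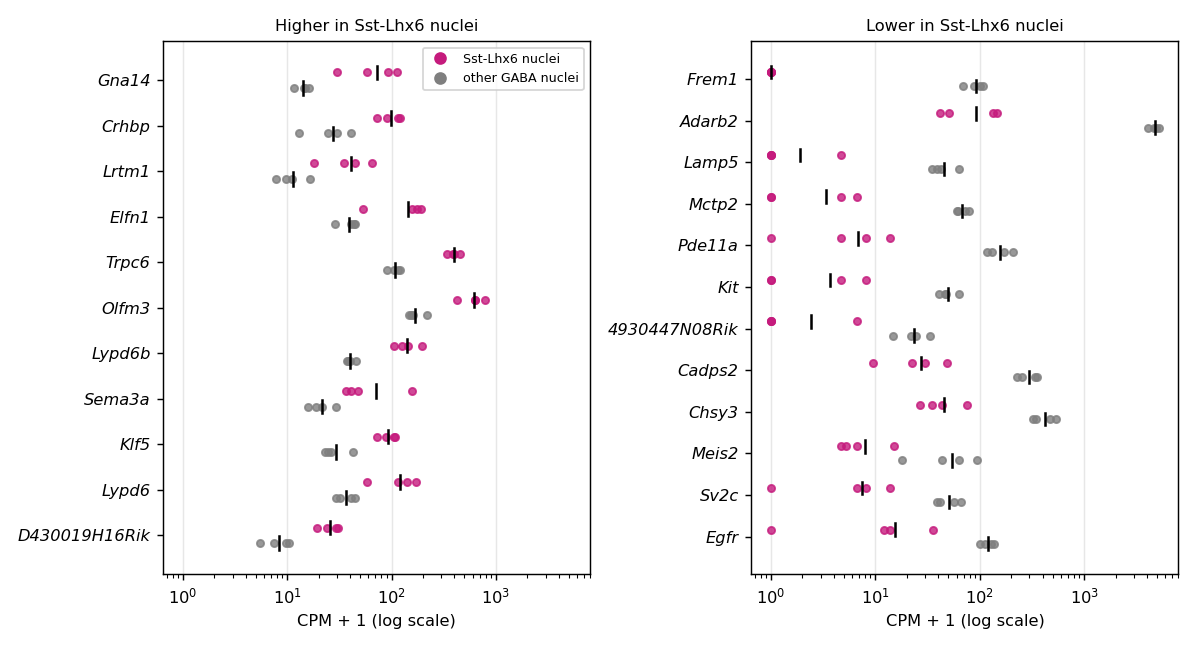
Of the 12 genes with the highest log2 fold change 11, and the 12 with the lowest, as CPM plus 1 on a log axis, with 1 point for each of the 4 libraries and a line at the mean. The libraries of Sst-Lhx6 nuclei and of other GABA nuclei do not overlap for any of the 23 genes, and Frem1 is at 0 in all 4 libraries of Sst-Lhx6 nuclei.

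Genes that mark subtypes of Sst cells were read from a list of 25, of which 17 were tested. Of these, 7 were higher than in other GABA nuclei and 1, Kit, was lower, with a median log2 fold change of 0.56 (0.01 over all genes tested, of which 1.11% were higher and 1.97% lower). Npy, the neuropeptide Y gene, had 737, 192, 504 and 299 CPM in MF1, MF2, HF1 and HF2 against 239, 161, 114 and 97.3 CPM (log2 fold change 1.48, SE 0.22, adjusted p = 0.00023). The groups overlapped, since MF2 of the Sst-Lhx6 nuclei was below MF1 of the others. Grin3a, an NMDA receptor subunit that lowers calcium entry, averaged 512 against 190.3 CPM (log2 fold change 1.41, SE 0.20, adjusted p = 0.0002). Trhde, the enzyme that degrades thyrotropin-releasing hormone, averaged 642 against 261 CPM (log2 fold change 1.27, SE 0.17, adjusted p = 8.3e-05), and the neurexin ligand Nxph1 3319.8 against 2233 CPM (log2 fold change 0.56, SE 0.13, adjusted p = 0.019). Reln, the secreted glycoprotein reelin, had 443, 1225, 1089 and 704 CPM against a mean of 553 CPM and missed the threshold (log2 fold change 0.56, SE 0.17, adjusted p = 0.097). Chrna2, a nicotinic receptor subunit of some oriens cells, had no UMI in any of these nuclei or of the other GABA nuclei. A call was lost without HF1 for Nxph1 (adjusted p = 0.21), and without HF2 for Nxph1 (adjusted p = 0.2). Calls also ended against nuclei matched on UMIs for Trhde, Nxph1 and Crhbp (adjusted p from 0.095 to 0.61) and without the library block for Nxph1 (adjusted p = 0.23).

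Subtype genes were read in part of the 56 nuclei. Npy was detected in 36 of them, Reln in 45 and both in 27. Elfn1 was detected in 35. Crhbp was detected in 25, of which 19 also had Npy. In excitatory nuclei, Elfn1 was found in 5.42% and Crhbp in 1.11%, against 62.5% and 44.6% here. Depth limits such counts, since a nucleus thinned to 3000 UMIs would be expected to show Npy in 40.9% and Reln in 61.0% of the nuclei, against 2.68% and 2.61% of the excitatory nuclei. Unthinned, Npy was found in 64.3% of the Sst-Lhx6 and 10.6% of the excitatory nuclei, and Reln in 80.4% and 6.68%. Chodl, which together with Nos1 marks the rare long-range Sst cells, had 10 UMIs in 1 HF1 nucleus and 5 in 1 HF2 nucleus and none elsewhere. The HF1 nucleus also held 59 Npy and 29 Nos1 UMIs, 70.7% of all Nos1 UMIs, and 12 of the substance P receptor gene Tacr1, and the HF2 nucleus 18, 6 and 6. Neither had a Reln UMI. The HF1 nucleus also held 329 UMIs of oligodendrocyte lineage markers, the most of any of the 56. These 2 nuclei show the long-range pattern at 2 of 56, too few to compare between diets. The vasoactive peptide gene Vip had 40 UMIs, of which 38 came from 1 MF1 nucleus that also held 22 Adarb2 and 41 Sst UMIs. In that nucleus CGE and MGE markers were read together, and the part of a second nucleus in it was not tested.

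Lineage lists were read to check the label against genes the rule did not use. Of 20 MGE genes, 14 were tested, 2 were higher and 2 lower (median log2 fold change 0.30), beside 1.11% and 1.97% of all genes tested. Satb1, a chromatin organizer needed for Sst cell maturation, had 461, 271, 294 and 427 CPM against 222, 185, 159 and 212 CPM, with no overlap (log2 fold change 0.88, SE 0.16, adjusted p = 0.0016). The transcription factor Maf averaged 482 against 261 CPM (log2 fold change 0.85, SE 0.18, adjusted p = 0.0074). Sox6, which acts after Lhx6 in the same lineage, averaged 462 ± 250.1 CPM (SD, n = 4) against 278 ± 40.0 CPM and missed the threshold (log2 fold change 0.66, SE 0.24, adjusted p = 0.22). Nfib, a nuclear factor I gene, was lower (log2 fold change -2.14, SE 0.18, adjusted p = 3.5e-07), as was Dlx6os1, a transcript antisense to Dlx6 (log2 fold change -1.52, SE 0.20, adjusted p = 8.6e-05). Nkx2-1 and Lhx8, early MGE factors, had no UMI in the 56 nuclei, and Nkx2-1 averaged 0.742 CPM in the other GABA nuclei. Of 20 CGE genes, 15 were tested, none was higher and 7 were lower, against the same shares of all genes (median -0.82). Beside Adarb2, Lamp5 and Egfr these were the cannabinoid receptor gene Cnr1 (mean 45.6 against 313 CPM, log2 fold change -2.73, SE 0.24, adjusted p = 4.6e-07), the secreted factor Ndnf (log2 fold change -2.72, SE 0.46, adjusted p = 0.00092), Id2 (log2 fold change -1.53, SE 0.37, adjusted p = 0.021) and the peptide gene Cck (log2 fold change -0.82, SE 0.21, adjusted p = 0.031). Prox1, a homeobox factor of CGE cells, averaged 61.9 against 95.7 CPM (log2 fold change -0.66, SE 0.23, adjusted p = 0.17). The 87 Sst nuclei without an Lhx6 UMI are part of the other GABA nuclei. They lay between the groups for Adarb2, with a mean of 866 CPM, and their mean Satb1 level was 355 CPM, against 363 CPM with Lhx6. Calls were lost without HF1 for Maf, Id2 and Cck (adjusted p = 0.066, 0.16 and 0.26), without HF2 for Maf and Cck (adjusted p = 0.14 and 0.24), without MF1 for Id2 and Cck (adjusted p = 0.14 and 0.063), and without MF2 for Maf and Id2 (adjusted p = 0.064 and 0.057). Calls also ended with DESeq2 for Id2 and Cck (adjusted p from 0.1 to 0.15), with at least 5 Sst UMIs required for Cck (adjusted p = 0.064), against nuclei matched on UMIs for Satb1, Maf, Dlx6os1 and Cck (adjusted p from 0.064 to 0.5) and without the library block for Id2 and Cck (adjusted p from 0.17 to 0.27).

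The closest comparison was with the 68 GABA nuclei that had Lhx6 and no Sst UMI, of which MF1 gave 23, MF2 16, HF1 19 and HF2 10. Of 3934 genes tested, 103 were higher in Sst-Lhx6 nuclei (2.62%) and 147 lower (3.74%). The total of 250 was 145 without MF2, 156 without HF2 and 164 with DESeq2. Tafa1, a secreted chemokine-like factor, had 104, 128, 265 and 243 CPM in MF1, MF2, HF1 and HF2 against 3.37, 0, 3.96 and 0 CPM, with no overlap and 2 UMIs in all without Sst (88.2-fold higher, 95% counting interval 24.0 to 734, adjusted p = 2.5e-05). Trpm3, a heat- and steroid-gated cation channel, had 109, 797, 659 and 726 CPM against 6.74, 10.3, 119 and 0 CPM (log2 fold change 3.99, SE 0.52, adjusted p = 0.00053). MF1 was the lowest for Trpm3 and lay below HF1 of the nuclei without Sst. Elfn1 averaged 143 against 7.93 CPM (log2 fold change 3.75, SE 0.46, adjusted p = 0.0003). Cacna2d3, an auxiliary subunit of calcium channels, had 933, 2378, 1748 and 1596 CPM against 263, 31.0, 297 and 67.3 CPM (log2 fold change 3.36, SE 0.51, adjusted p = 0.0011). Man1a, a Golgi mannosidase, averaged 454 against 41.4 CPM (log2 fold change 3.12, SE 0.44, adjusted p = 0.00077). The transcripts Gm28175, Gm49678 and Gm12296 had log2 fold changes of 3.77, 3.61 and 3.47 (adjusted p = 3.8e-05, 0.0015 and 0.00016). Gm12296 overlaps Shisa6 on the opposite strand, and reads of the pair cannot be told apart without strand.

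Among the lower genes, Mctp2 averaged 2.36 CPM in Sst-Lhx6 nuclei and 171 CPM in Lhx6 nuclei without Sst (69.7-fold lower, 95% counting interval 19.0 to 581, adjusted p = 3e-05), and Pde11a 5.90 against 253 CPM (log2 fold change -5.26, SE 0.41, adjusted p = 2.5e-05). Cacna2d1, the paralogous calcium channel subunit, had 46.1, 206, 77.3 and 102 CPM against 1741, 1178, 1141 and 786 CPM (log2 fold change -3.56, SE 0.35, adjusted p = 6.1e-05). Cacna2d3 and Cacna2d1 thus moved in opposite directions between these groups. Fgf13, an intracellular partner of sodium channels, averaged 224 against 1872 CPM (log2 fold change -3.12, SE 0.28, adjusted p = 3.8e-05). Hcrtr2, a receptor of orexin, averaged 9.39 against 119 CPM (log2 fold change -3.36, SE 0.47, adjusted p = 0.00077). Adarb2 was lower here too, at a mean of 948 CPM without Sst (log2 fold change -3.31, SE 0.33, adjusted p = 7.3e-05). Cemip, which binds hyaluronan (log2 fold change -3.77, SE 0.32, adjusted p = 3.4e-05), and the zinc finger gene Zfp804b (log2 fold change -3.23, SE 0.41, adjusted p = 0.0004) completed the list.

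Pvalb cells are the other large type born with Lhx6. Of 17 genes known from them, 11 were tested against Lhx6 nuclei without Sst, and 7 were lower in Sst-Lhx6 nuclei while none was higher (median -1.01, against 0.00 over all genes tested, of which 2.62% were higher and 3.74% lower). Pvalb, the calcium buffer parvalbumin, averaged 22.5 ± 17.6 CPM (SD, n = 4) against 91.3 ± 41.0 CPM (log2 fold change -2.05, SE 0.50, adjusted p = 0.027). Syt2, the fast calcium sensor of release, averaged 8.12 against 65.5 CPM (log2 fold change -3.04, SE 0.61, adjusted p = 0.0086). The fast potassium channel gene Kcnc1 (log2 fold change -1.01, SE 0.24, adjusted p = 0.026) and Kcns3, a silent modifier subunit (log2 fold change -1.01, SE 0.25, adjusted p = 0.027), were lower as well. Erbb4, the neuregulin receptor, had 4917, 1452, 2532 and 2702 CPM against 12431, 15678, 14680.5 and 15848 CPM, with no overlap (log2 fold change -2.50, SE 0.28, adjusted p = 0.0002). The adhesion gene Cntnap4 (log2 fold change -1.73, SE 0.23, adjusted p = 0.00064) and Btbd11 (log2 fold change -1.83, SE 0.40, adjusted p = 0.015) completed the 7. Against all other GABA nuclei, Erbb4 (log2 fold change -1.81, SE 0.20, adjusted p = 1.2e-05) and Cntnap4 (log2 fold change -0.74, SE 0.17, adjusted p = 0.02) were lower and the adhesion phosphatase gene Ptprt was higher (log2 fold change 0.78, SE 0.15, adjusted p = 0.003). The calls against other GABA nuclei were lost without HF1 for Ptprt (adjusted p = 0.074), without HF2 for Cntnap4 (adjusted p = 0.2), and without MF2 for Cntnap4 (adjusted p = 0.13). These also ended against nuclei matched on UMIs for Ptprt (adjusted p = 0.11), without the library block for Cntnap4 and Ptprt (adjusted p from 0.05 to 0.072) and without nuclei with a Scrublet score over 0.05 for Cntnap4 (adjusted p = 0.13). Against Lhx6 nuclei without Sst, calls were lost without HF1 for Pvalb, Syt2, Kcnc1, Kcns3 and Btbd11 (adjusted p from 0.055 to 0.21), without HF2 for Pvalb, Syt2, Kcnc1, Kcns3 and Btbd11 (adjusted p from 0.05 to 0.14), without MF1 for Kcns3 (adjusted p = 0.11), and without MF2 for Pvalb, Syt2, Kcnc1 and Btbd11 (adjusted p from 0.055 to 0.17). Calls also ended with DESeq2 for Kcnc1 and Kcns3 (adjusted p from 0.081 to 0.24) and without the library block for Kcns3 (adjusted p = 0.064).

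Several other lists held calls in the same comparison, to be read against the 2.62% of all genes that were higher and the 3.74% that were lower. Of 12 Sst subtype genes tested, 8 were higher and none lower than in Lhx6 nuclei without Sst (median 1.53), among them Elfn1, Npy, Crhbp, Grin3a, Trhde, Reln and Igf1. Reln had 443, 1225, 1089 and 704 CPM against 344, 506, 234 and 374 CPM, and the groups overlapped, since MF1 lay below MF2 of the nuclei without Sst (log2 fold change 1.16, SE 0.27, adjusted p = 0.02). Igf1, an insulin-like growth factor, averaged 94.6 against 19.7 CPM (log2 fold change 2.20, SE 0.34, adjusted p = 0.0014). Of 11 MGE genes, the transcription factor Bcl11a was higher (log2 fold change 0.94, SE 0.25, adjusted p = 0.04) and Mef2c (log2 fold change -1.41, SE 0.24, adjusted p = 0.0029) and Nfib (log2 fold change -1.87, SE 0.27, adjusted p = 0.001) were lower. The muscarinic receptor Chrm3, coupled to Gq, was higher (log2 fold change 1.54, SE 0.31, adjusted p = 0.0082) and Chrm2, coupled to Gi, was lower (log2 fold change -1.26, SE 0.29, adjusted p = 0.022). Among 11 GABA receptor subunits, Gabra2 was higher (log2 fold change 1.97, SE 0.35, adjusted p = 0.004), while 4 were lower, among them Gabrb2, Gabrg3 and Gabbr2 with log2 fold changes of -1.36, -2.59 and -0.87. Of 24 potassium and HCN channel genes, Kcnd3, an A-type channel, was higher (log2 fold change 1.10, SE 0.27, adjusted p = 0.029) and 7 were lower, among them Kcnip2 (log2 fold change -2.87, SE 0.41, adjusted p = 0.00082). Calls were lost without HF1 for Crhbp, Grin3a, Reln, Bcl11a, Chrm2 and Kcnd3 (adjusted p from 0.067 to 0.16), without HF2 for Crhbp, Grin3a, Reln, Bcl11a, Chrm3, Chrm2, Gabbr2 and Kcnd3 (adjusted p from 0.061 to 0.16), without MF1 for Crhbp and Gabbr2 (adjusted p = 0.12 and 0.15), and without MF2 for Grin3a, Reln, Bcl11a, Chrm2, Gabbr2 and Kcnd3 (adjusted p from 0.1 to 0.18). Calls also ended with DESeq2 for Bcl11a, Chrm2, Gabbr2 and Kcnd3 (adjusted p from 0.077 to 0.17), without the library block for Chrm2 (adjusted p = 0.065), without nuclei with a Scrublet score over 0.05 for Reln and Bcl11a (adjusted p from 0.065 to 0.094) and without nuclei of 20 or more astrocyte UMIs for Crhbp and Chrm2 (adjusted p from 0.053 to 0.48).

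Further lists also held calls against Lhx6 nuclei without Sst, again beside 2.62% higher and 3.74% lower of all genes tested. Of 7 CGE genes tested, 1 was higher and 2 were lower. The higher one was Npas3, a bHLH-PAS transcription factor, at 1284, 1616, 1756 and 2006 CPM against 350.3, 429, 384 and 337 CPM in MF1, MF2, HF1 and HF2 (log2 fold change 2.09, SE 0.19, adjusted p = 3.8e-05). It moved against the direction of Adarb2 and of Id2, an inhibitor of bHLH factors (log2 fold change -2.59, SE 0.38, adjusted p = 0.001), and against other GABA nuclei it missed the threshold (log2 fold change 0.09, SE 0.14, adjusted p = 0.9). Of 18 sodium and calcium channel genes tested, Cacna2d3 and the calcium channel subunit gene Cacna1e (log2 fold change 0.998, SE 0.25, adjusted p = 0.03) were higher and Cacna2d1 lower. Of 18 synapse organizers tested, Elfn1 and the neurexin gene Nrxn3 (log2 fold change 1.03, SE 0.17, adjusted p = 0.0021) were higher, and Cntnap4, Cntnap5a (log2 fold change -0.98, SE 0.23, adjusted p = 0.022), Cntnap5b (log2 fold change -1.17, SE 0.32, adjusted p = 0.047) and Il1rapl1 (log2 fold change -0.98, SE 0.19, adjusted p = 0.0062) lower. Of 5 neuropeptide genes tested, Npy and Crhbp were higher. Of 4 genes of GABA synthesis and transport 1 was lower, and of 3 oligodendrocyte lineage markers Vcan was lower (log2 fold change -2.26, SE 0.44, adjusted p = 0.0077). Of 59 oxidative phosphorylation genes tested, Ndufs1 was the 1 call (log2 fold change -1.03, adjusted p = 0.042). Among these the calls were lost without HF1 for Crhbp, Cacna1e, Cntnap5a, Cntnap5b and Ndufs1 (adjusted p from 0.067 to 0.26), without HF2 for Crhbp, Cacna1e, Cntnap5b and Ndufs1 (adjusted p from 0.053 to 0.31), without MF1 for Crhbp, Cntnap5a and Ndufs1 (adjusted p = 0.12, 0.059 and 0.11), and without MF2 for Cacna1e, Cntnap5a, Cntnap5b and Ndufs1 (adjusted p from 0.11 to 0.24). They also ended with DESeq2 for Cacna1e, Cntnap5b and Ndufs1 (adjusted p from 0.18 to 0.37), with RLE size factors for Cntnap5b (adjusted p = 0.05), with at least 5 Sst UMIs required for Cntnap5b and Ndufs1 (adjusted p from 0.057 to 0.067), without the library block for Cntnap5a and Cntnap5b (adjusted p from 0.12 to 0.15), without nuclei with a Scrublet score over 0.05 for Cacna1e and Ndufs1 (adjusted p from 0.11 to 0.5) and without nuclei of 20 or more astrocyte UMIs for Crhbp, Cntnap5b and Ndufs1 (adjusted p from 0.053 to 0.42).

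Receptors for glutamate and GABA carry the input to these cells. Of 25 glutamate receptor genes, 22 were tested, 5 were higher than in other GABA nuclei and none lower (median 0.21), beside 1.11% higher and 1.97% lower of all genes. Beside Grin3a, these included the AMPA subunit Gria3 (1186, 926, 916 and 1174 against 608, 637, 556 and 582 CPM, log2 fold change 0.80, SE 0.14, adjusted p = 0.0015) and the kainate subunit Grik3 (155, 192, 147 and 256 against 72.2, 66.5, 56.4 and 88.4 CPM, log2 fold change 1.38, SE 0.18, adjusted p = 4.9e-05). For both the groups did not overlap. Against Lhx6 nuclei without Sst, 6 of 20 tested were higher and none lower, beside 2.62% and 3.74% of all genes. These included Grik3, Grin3a, Grm7 (log2 fold change 2.41, SE 0.38, adjusted p = 0.0017) and Grm8 (log2 fold change 2.46, SE 0.29, adjusted p = 0.00023), the latter pair being presynaptic group III receptors. Of 14 GABA receptor subunits tested against other GABA nuclei, 2 were higher and 3 lower, again beside 1.11% and 1.97%. Gabra3 (log2 fold change 1.05, SE 0.22, adjusted p = 0.0067) and Gabrg1 (log2 fold change 1.198, SE 0.31, adjusted p = 0.033) were higher. Gabrb2, a beta subunit, had 369, 285, 294 and 444 against 618, 657, 542 and 758 CPM (log2 fold change -0.90, SE 0.15, adjusted p = 0.00087), and Gabrg3, a gamma subunit, 651, 242, 475 and 619 against 1483, 1442, 1546 and 1584 CPM (log2 fold change -1.66, SE 0.18, adjusted p = 1.1e-05). Gabra5, a subunit of extrasynaptic receptors, was lower too (log2 fold change -1.45, SE 0.33, adjusted p = 0.013). Calls were lost without HF1 for Gabra3 and Gabra5 (adjusted p = 0.11 and 0.071), without HF2 for Gabrg1 and Gabra5 (adjusted p = 0.17 and 0.17), and without MF2 for Gabrg1 (adjusted p = 0.27). Calls also ended with Lhx6 not required for Gabra3 and Gabrg1 (adjusted p from 0.088 to 0.22), against nuclei matched on UMIs for Gria3, Gabra3, Gabrg1 and Gabra5 (adjusted p from 0.12 to 0.45) and without the library block for Gabrg1 (adjusted p = 0.16). Against Lhx6 nuclei without Sst, the call of Grin3a was lost without HF1, HF2 or MF2 (adjusted p = 0.11, 0.14 and 0.15).

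Of 31 potassium and HCN channel genes tested, none was higher than in other GABA nuclei and 8 were lower (median -0.19), beside 1.11% higher and 1.97% lower over all genes tested. Kcnq5, a subunit of the slow M current, had 132, 228, 372 and 286 CPM against 892, 983, 846 and 1161 CPM, far from overlap (log2 fold change -1.95, SE 0.20, adjusted p = 5e-06). The auxiliary subunits of A-type channels Kcnip1 (log2 fold change -0.91, SE 0.21, adjusted p = 0.013), Kcnip2 (log2 fold change -1.81, SE 0.41, adjusted p = 0.013) and Kcnip4 (log2 fold change -1.07, SE 0.14, adjusted p = 8.3e-05) were lower, as was the beta subunit Kcnab1 (log2 fold change -1.07, SE 0.23, adjusted p = 0.01). Kcnh1 (log2 fold change -1.77, SE 0.29, adjusted p = 0.00061), Kcnh7 (log2 fold change -1.28, SE 0.17, adjusted p = 7.6e-05) and the calcium-activated channel gene Kcnn2 (log2 fold change -1.297, SE 0.26, adjusted p = 0.0044) completed the 8. Of 22 sodium and calcium channel genes tested, Cacna2d3 was higher (mean 1664 against 646 CPM, log2 fold change 1.29, SE 0.16, adjusted p = 5.1e-05), and Cacna2d1 (log2 fold change -2.84, SE 0.27, adjusted p = 1.5e-06) and Cacnb2 (log2 fold change -0.67, SE 0.16, adjusted p = 0.022) were lower. Among 12 acetylcholine and monoamine receptor genes tested, the serotonin receptor Htr2c was the 1 call, lower at 46.1, 0, 36.8 and 0 against 157, 75.1, 148 and 213 CPM (log2 fold change -2.83, SE 0.41, adjusted p = 0.00019). Of 6 neuropeptide receptor genes tested, Hcrtr2 was the 1 call (log2 fold change -2.76, SE 0.39, adjusted p = 0.00016). Among 30 synapse organizers tested, Elfn1 and Nxph1 were higher and Cntnap4 and Cntnap5b (log2 fold change -0.997, SE 0.17, adjusted p = 0.0014) lower. Calls were lost without HF1 for Kcnip1, Kcnip2, Kcnn2, Kcnab1 and Nxph1 (adjusted p from 0.06 to 0.21), without HF2 for Kcnip2, Kcnab1, Cacnb2, Nxph1 and Cntnap4 (adjusted p from 0.085 to 0.2), without MF1 for Kcnip1 (adjusted p = 0.054), and without MF2 for Kcnip1, Kcnab1, Cacnb2 and Cntnap4 (adjusted p from 0.065 to 0.13). Calls also ended with DESeq2 for Kcnip2 and Htr2c (adjusted p = 0.086), with Lhx6 not required for Htr2c (adjusted p = 0.22), against nuclei matched on UMIs for Kcnip1, Kcnip4, Kcnh1, Kcnn2, Cacnb2, Nxph1 and Cntnap5b (adjusted p from 0.058 to 0.61), without the library block for Kcnip4, Cacnb2, Nxph1 and Cntnap4 (adjusted p from 0.059 to 0.23) and without nuclei with a Scrublet score over 0.05 for Cntnap4 (adjusted p = 0.13).

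**Figure D3:**
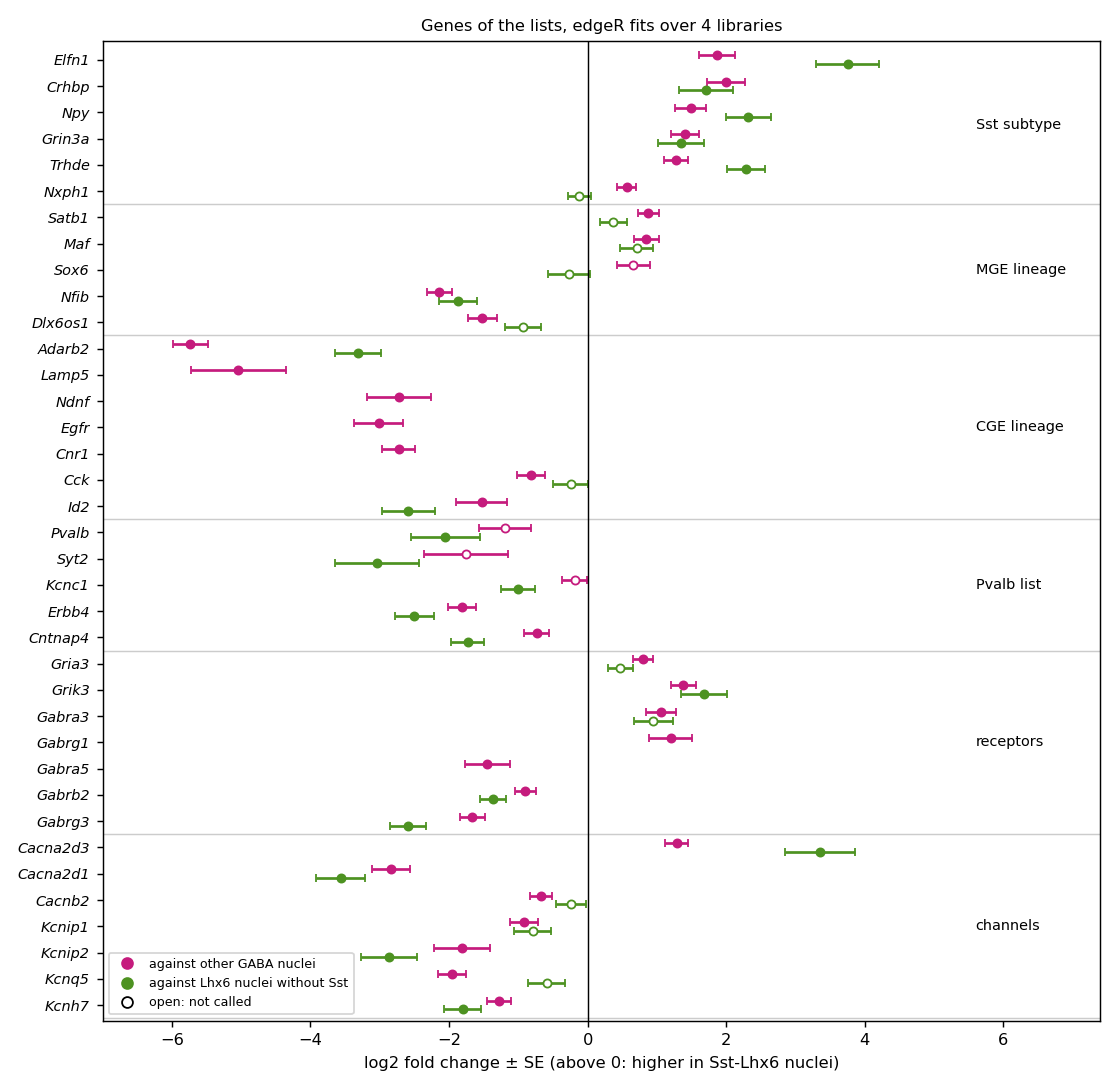
The log2 fold change ± SE (edgeR, 4 libraries) of 37 genes from the lists, chosen for display after their values were seen, against other GABA nuclei (magenta) and against Lhx6 nuclei without Sst (green), filled where called. Adarb2 has the lowest value, -5.73, and the genes shown are part of each list: of 17 Sst subtype genes tested against other GABA nuclei, 7 were higher, 1 was lower and 9 were not called.

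The remaining lists gave few or no calls. Folate and one-carbon genes were read because of the diet: 15 of 42 were tested against other GABA nuclei and none was called (median -0.05), and their summed level was 990.4, 918, 876 and 901 CPM in MF1, MF2, HF1 and HF2. None of 11 DNA methylation genes tested was called (median -0.04), nor any of 6 activity-induced genes (median -0.10). Dnmt3a, which adds methyl groups to DNA de novo, averaged 151 ± 17.3 CPM (SD, n = 4) against 153 ± 16.0 CPM. The GABA list had 6 genes tested and no call, with the vesicular GABA transporter Slc32a1 at 115, 92.6, 44.2 and 59.8 CPM. None of 80 ribosomal protein genes (median 0.00) and none of 77 nuclear genes of oxidative phosphorylation (median 0.15) was called against other GABA nuclei. Excitatory (7 tested) and astrocyte markers (4 tested), microglial and vascular markers (4 tested) and haemoglobin and choroid plexus genes (6 tested) had no call. Of 8 oligodendrocyte lineage markers tested, Vcan, a matrix proteoglycan, was lower (log2 fold change -1.50, SE 0.32, adjusted p = 0.0091). The call of Vcan was lost without HF2 (adjusted p = 0.079).

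The diet was compared within Sst-Lhx6 nuclei over the 4 library sums. Of 4118 genes tested, 0 were called (0.00%) by edgeR and 0 by DESeq2, and 226 had an unadjusted p under 0.05 in edgeR. The diets did not overlap for 646 genes higher in HF (15.7%) and 834 lower (20.3%). The 5 higher genes with the smallest p were Gpc5, Cacng3, Prex2, Sox6 and Slc1a3. Gpc5, a glypican that is abundant in astrocytes, had 5.76, 42.7, 261 and 1046 CPM in MF1, MF2, HF1 and HF2 (log2 fold change 4.85, SE 0.80, adjusted p = 0.23). Slc1a3, a glutamate transporter of astrocytes, had 0, 7.12, 58.9 and 158 CPM (log2 fold change 4.86, SE 0.998, adjusted p = 0.38), and Prex2, an exchange factor for Rac, 5.76, 7.12, 77.3 and 124 CPM (log2 fold change 3.89, SE 0.71, adjusted p = 0.23). All 3 were low in both MF libraries. Slc1a3 was detected in 8 of 56 nuclei, Prex2 in 9 and Gpc5 in 15, among them 6 of 17 in HF1 and 6 of 16 in HF2. Of the Gpc5 UMIs, 1 nucleus held 45 of 71 in HF1 and 1 held 110 of 245 in HF2. Slc1a3 is itself 1 of the 10 astrocyte markers read here, so their sum is not independent of it. Slc1a2, another astrocyte glutamate transporter, and Slc1a3 held 53 and 16 of the 93 marker UMIs in HF1. In HF2 they held 154 and 37 of 232, in MF1 3 and 0 of 6 and in MF2 24 and 1 of 27. The summed level of the 10 markers was 34.5, 192, 342 and 990.2 CPM in MF1, MF2, HF1 and HF2 in these nuclei and 260.2, 389, 515 and 368 CPM in the other GABA nuclei. In MF1 and MF2, 7 of the 10 markers had no UMI, in HF1 1 and in HF2 0. Only 4 of the 56 nuclei had 20 or more astrocyte UMIs, 1 in HF1 with 75 and 3 in HF2 with 105, 70 and 42, and the next highest had 11. Without nuclei of 20 or more astrocyte UMIs, 0 of 3523 genes were called, the log2 fold change of Gpc5 was 2.54 (adjusted p = 0.72), and Slc1a3 and Prex2 were too low to be tested. Slc1a3 UMIs count toward those 20, so its fall was built into this filter. The part of other cells' RNA in the result was not tested beyond these values, and Scrublet scores over 0.05 were given to 1 of 12 (MF1), 1 of 11 (MF2), 3 of 17 (HF1) and 5 of 16 nuclei (HF2).

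Cacng3, an AMPA receptor auxiliary subunit, was spread over more nuclei. It had 4, 4, 42 and 32 UMIs in MF1, MF2, HF1 and HF2 (23.0, 28.5, 155 and 137 CPM), and was detected in 4 of 12, 3 of 11, 13 of 17 and 13 of 16 nuclei, in the same order. Both HF libraries were above both MF libraries (log2 fold change 2.53, SE 0.45, adjusted p = 0.23). Its log2 fold change was 2.55 without the nuclei of 20 or more astrocyte UMIs (adjusted p = 0.53). In the other GABA nuclei Cacng3 stood at 48.9, 67.2, 62.9 and 52.2 CPM, where the diets overlapped. With Lhx6 not required, its log2 fold change was 0.60 (adjusted p = 0.99). Sox6 had 288, 206, 669.8 and 683 CPM (log2 fold change 1.49, SE 0.30, adjusted p = 0.38), against 268, 300.4, 227 and 317 CPM in the other GABA nuclei. The log2 fold change of Sox6 was 0.956 without Scrublet scores over 0.05 (adjusted p = 0.92). It was 1.35 without nuclei of 20 or more astrocyte UMIs (adjusted p = 0.72). In HF1, 52 of 182 Sox6 UMIs came from the nucleus with the most astrocyte UMIs. The 5 lower genes with the smallest p were Nsg1, a protein of neuronal endosomes, at 225, 199, 77.3 and 59.8 CPM (log2 fold change -1.57, SE 0.35, adjusted p = 0.47), Neb, known from muscle thin filaments, at 80.6, 121, 7.36 and 21.3 CPM (log2 fold change -2.74, SE 0.61, adjusted p = 0.47), Chmp2a of the membrane-scission complex ESCRT-III (log2 fold change -2.56, SE 0.71, adjusted p = 0.88), the sodium pump subunit Atp1b1 (log2 fold change -0.97, SE 0.27, adjusted p = 0.88) and Caly, a vesicular protein (log2 fold change -1.33, SE 0.38, adjusted p = 0.88). None of the 10 passed the threshold. With the replicate number as a block, 5 genes were called, all higher in HF: Gpc5 (adjusted p = 8e-06), Slc1a2 (0.016), Slc1a3 (0.028), Prex2 (0.045) and Cacng3 (0.045), of which Slc1a2 is another astrocyte glutamate transporter. That fit, and each diet fit with 1 library left out, had very little spread between libraries left to measure. Calls also appeared when 1 library was left out, 27 without MF1, 55 without MF2 and 5 without HF2, and 0 without HF1.

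**Figure D4:**
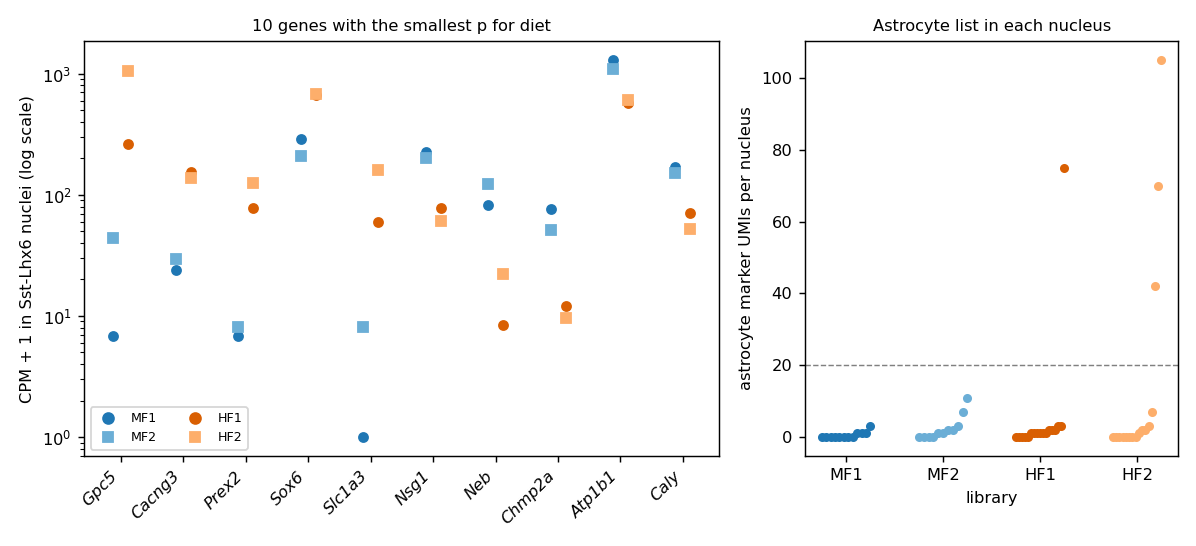
Left, CPM plus 1 on a log axis of the 5 higher and 5 lower genes with the smallest p for diet, in the Sst-Lhx6 nuclei of each library. Right, UMIs of the 10 astrocyte markers in each of the 56 nuclei, with a dashed line at 20. The 4 nuclei above the line are all from HF libraries.

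No list showed a called gene for diet. Npy missed the threshold (737, 192, 504 and 299 CPM in MF1, MF2, HF1 and HF2, log2 fold change -0.17, SE 0.48, adjusted p = 0.97). Of 5 folate and one-carbon genes tested, 0 were separated by diet, and of 6 DNA methylation genes 2 were lower in HF without overlap and 0 higher (median log2 fold change -0.09). Ribosomal protein genes lay lower in HF without overlap for 32 of 73 tested (median -0.47), and oxidative phosphorylation genes for 25 of 63 (median -0.60), compared with 20.3% of all genes tested and a median of 0.00. Their sums were 10693, 7305, 7688 and 5211 CPM and 10405, 5852, 6337 and 4430.1 CPM in MF1, MF2, HF1 and HF2. In both sums MF2 lay below HF1, so the sums overlapped between the diets. In the other GABA nuclei the same sums were 9560.2, 6113, 9090.3 and 4868 CPM and 7051, 4817, 7470.1 and 4094 CPM, and HF2 was the lowest there too. The excitatory nuclei had sums of 9322, 6251, 8712 and 4661 CPM and of 6197, 4432, 6513 and 3556 CPM, again lowest in HF2. The haemoglobin and choroid plexus genes, which mark blood and choroid plexus cells, summed to 726, 370.2, 361 and 154 CPM in the Sst-Lhx6 nuclei, lower in HF without overlap for 2 of 3 tested (median -1.32), and their part in these differences was not tested. The difference between the diet response of Sst-Lhx6 nuclei and that of other GABA nuclei was tested as an interaction over 10127 genes. It gave 0 calls (0.00%) in edgeR, with 445 genes at an unadjusted p under 0.05, and 1 in DESeq2, Gpc5 (log2 difference 4.26, adjusted p = 0.019). Leaving out a library gave 25 calls without MF1, 37 without MF2, 12 without HF1 and 11 without HF2. Counts of the same depth were simulated over 4144 genes, with a common dispersion and with changes placed in the more abundant genes. The diet test recovered 74% of 4-fold and 15% of 2-fold changes, so changes of 2-fold were mostly not detectable in these library sums.

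Accessible chromatin was read in the same nuclei, as counts over regions merged from the libraries' peaks. Of 39940 regions tested between Sst-Lhx6 and other GABA nuclei, 0 were called (0.00%) by edgeR, with 2402 at an unadjusted p under 0.05, and 12 by DESeq2. Between diets, 0 of 8419 regions were called (0.00%) in Sst-Lhx6 nuclei, with 388 at an unadjusted p under 0.05 and 0 calls in DESeq2. On simulated counts, with 39991 regions tested, the first test recovered 30% of the 4-fold changes placed. Changes placed in untested regions counted as missed, so most changes of that size were not detectable in these library sums. The region at the Lhx6 start had 10.9, 62.8, 49.4 and 18.6 CPM in MF1, MF2, HF1 and HF2, against a mean of 11.8 CPM in the others, and MF1 lay within the range of the others (log2 fold change 1.24, adjusted p = 0.62). The region at the Adarb2 start averaged 4.79 against 16.6 CPM (log2 fold change -2.14, adjusted p = 0.59). The nearest shared region to the Sst start was 5271 bases away.

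Counts summed over a gene body and 2 kb upstream, a measure added after the data were seen, are less sparse. Against other GABA nuclei, 0 of 18730 genes were called by edgeR (1055 at an unadjusted p under 0.05) and 0 by DESeq2. Against Lhx6 nuclei without Sst, 7 of 12796 genes were more accessible (0.0547%) and 1 less (0.00781%). Gabra2, a GABA receptor subunit, had 151, 100.4, 100.7 and 99.3 CPM in MF1, MF2, HF1 and HF2 against 43.4, 20.7, 41.5 and 40.7 CPM (log2 fold change 1.65, SE 0.33, adjusted p = 0.02). The transcriptional cofactor Zfpm2 (log2 fold change 1.28, SE 0.27, adjusted p = 0.028) and Cacna2d3 (log2 fold change 0.95, SE 0.16, adjusted p = 0.0047) were more accessible too, as were the neuronal factor Npas3, the axon initial segment gene Schip1 and the adhesion gene Dscam. The homeobox gene Pknox2 was less accessible (log2 fold change -0.81, SE 0.17, adjusted p = 0.028). For all 8 the RNA was called in the same direction, beside 2.62% higher and 3.74% lower of all genes tested for RNA in this comparison. DESeq2 called none of the 8, and leaving out a library left 1 call without MF1, 4 without MF2, 2 without HF1 and 0 without HF2.

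The same region test under a wider gate that did not require Lhx6 was added after the data were seen. This gate held 44, 22, 45 and 32 nuclei in MF1, MF2, HF1 and HF2. Against the remaining GABA nuclei, 44 of 39703 regions were more accessible (0.111%) and 23 less (0.0579%), and when Lhx6 was required 0 regions were called. All 67 had the same sign in all 4 libraries. Of the 44 higher regions 26 lay between genes (59.1%), against 27.0% of the regions tested, and 1 overlapped a gene start, against 25.5%. A region in Crhbp, which overlaps one of its exons in part, had 22.4, 16.8, 21.6 and 19.8 CPM in MF1, MF2, HF1 and HF2 against 4.52, 4.87, 4.24 and 4.65 CPM (log2 fold change 2.08, SE 0.41, adjusted p = 0.02). A region 72.2 kb from the Npy start had 16.8, 25.9, 26.9 and 19.8 against 2.87, 8.76, 4.24 and 4.65 CPM (log2 fold change 2.13, SE 0.39, adjusted p = 0.015). A region between genes, 96.6 kb from the start of Cbln4, which encodes a cerebellin of Sst cell synapses, had 15.7, 27.5, 30.5 and 32.2 against 4.52, 4.22, 5.08 and 6.64 CPM (log2 fold change 2.30, SE 0.36, adjusted p = 0.0062). In Cacna2d3 a region that overlaps an exon of the transcript Gm48003 in part had 41.5, 36.6, 18.9 and 23.6 against 7.39, 12.0, 5.93 and 10.6 CPM (log2 fold change 1.68, SE 0.32, adjusted p = 0.017). Of the lower regions, one 613 kb from the Adarb2 start had 0, 3.05, 0 and 0 against 12.7, 14.6, 17.4 and 10.95 CPM (log2 fold change -4.47, SE 0.76, adjusted p = 0.0081). In the Sst-Lhx6 nuclei themselves the log2 fold changes of these 5 regions were 0.50 (SE 0.69) for Crhbp, 1.303 (SE 0.56) for Npy, 1.90 (SE 0.48) for Cbln4, 0.85 (SE 0.47) for Cacna2d3 and -7.42 (SE 1.87) for Adarb2, with adjusted p from 0.46 to 0.97. That of Crhbp was smaller than its SE. Over gene bodies, 33 of 18838 genes were more accessible under this gate (0.175%) and 35 less (0.186%). The RNA of 14 of the 33 and 19 of the 35 was called in the same direction and of none in the opposite. The RNA of 4 and 3 was tested and not called, and that of 28 was not tested. Over all 9471 genes tested for RNA under this gate, 152 were called higher and 252 lower. Crhbp was among the higher (log2 fold change 1.77, SE 0.28, adjusted p = 0.00011) and Adarb2 among the lower (log2 fold change -1.44, SE 0.16, adjusted p = 1.6e-08).

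**Figure D5:**
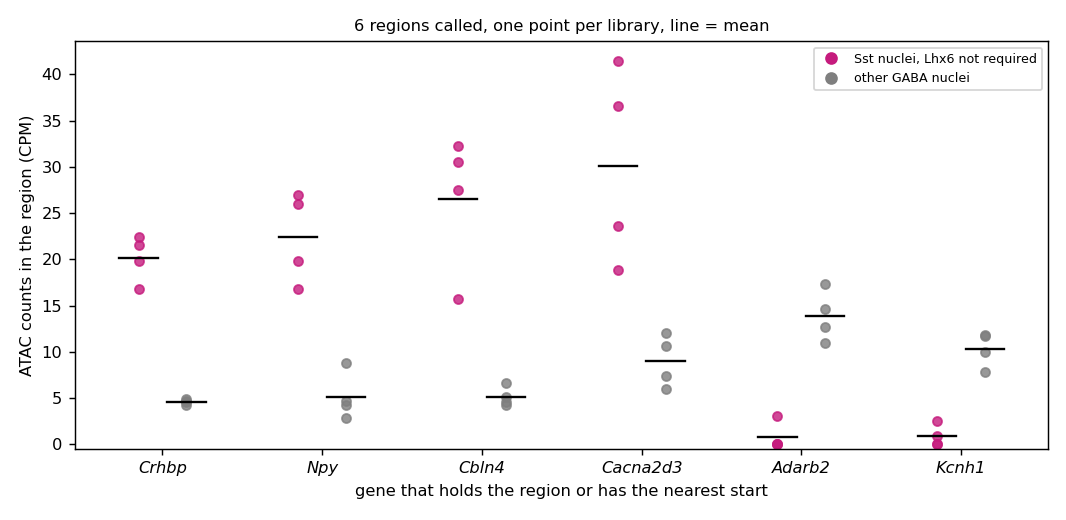
Chromatin CPM in 6 regions called under the wider gate, 1 point for each library, in Sst nuclei with Lhx6 not required and in the remaining GABA nuclei. The regions named for Crhbp, Npy, Cbln4 and Cacna2d3 are higher and those of Adarb2 and Kcnh1 lower in Sst nuclei in all 4 libraries.

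The middle 300 bases of these regions are shown because the regions around them, counted whole, differed in accessibility between Sst nuclei and other GABA nuclei, and the windows themselves were not counted (GRCm38.p6, plus strand, 5′ to 3′, motif letters in capitals). Each is named by the gene it lies in or by the nearest gene start. None of the 5 windows overlaps an annotated exon.
Crhbp (chr13:95439587-95439886): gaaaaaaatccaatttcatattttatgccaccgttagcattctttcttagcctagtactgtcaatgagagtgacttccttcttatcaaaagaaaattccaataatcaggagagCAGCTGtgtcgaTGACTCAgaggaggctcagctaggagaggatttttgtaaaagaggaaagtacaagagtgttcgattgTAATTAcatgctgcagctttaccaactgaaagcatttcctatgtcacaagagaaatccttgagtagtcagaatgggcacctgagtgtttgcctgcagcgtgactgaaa
Npy (chr6:49750393-49750692): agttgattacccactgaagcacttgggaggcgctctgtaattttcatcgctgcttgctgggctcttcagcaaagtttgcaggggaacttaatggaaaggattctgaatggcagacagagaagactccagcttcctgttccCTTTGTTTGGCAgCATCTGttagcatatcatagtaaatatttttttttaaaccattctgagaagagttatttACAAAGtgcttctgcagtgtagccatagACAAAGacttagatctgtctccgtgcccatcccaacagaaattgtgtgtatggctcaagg
Cbln4 (chr2:171946765-171947064): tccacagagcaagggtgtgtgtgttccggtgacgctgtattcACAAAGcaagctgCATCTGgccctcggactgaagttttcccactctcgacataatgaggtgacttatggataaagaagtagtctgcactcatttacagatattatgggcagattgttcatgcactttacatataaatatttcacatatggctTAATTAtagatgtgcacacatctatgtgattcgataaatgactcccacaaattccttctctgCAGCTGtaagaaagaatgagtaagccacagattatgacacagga
Cacna2d3 (chr14:29592213-29592512): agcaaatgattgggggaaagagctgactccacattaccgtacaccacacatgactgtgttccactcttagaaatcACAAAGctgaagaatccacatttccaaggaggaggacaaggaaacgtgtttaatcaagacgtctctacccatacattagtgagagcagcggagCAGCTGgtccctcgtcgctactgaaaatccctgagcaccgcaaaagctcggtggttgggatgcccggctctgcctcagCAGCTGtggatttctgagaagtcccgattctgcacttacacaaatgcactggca
Adarb2 (chr13:7589802-7590101): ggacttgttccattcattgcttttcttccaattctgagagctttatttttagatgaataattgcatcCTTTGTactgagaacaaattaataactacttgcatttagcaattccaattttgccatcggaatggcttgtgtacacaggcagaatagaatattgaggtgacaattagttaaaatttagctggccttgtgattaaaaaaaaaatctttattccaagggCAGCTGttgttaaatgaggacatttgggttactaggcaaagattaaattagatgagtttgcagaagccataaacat
Short motifs known from neuronal regulators were counted on both strands over the middle 300 bases of each region, as a description. An E-box of bHLH factors, CAGCTG in 56.8% of the higher, 21.7% of the lower and 27.4% of all tested windows, and another, CAGATG in 45.5% of the higher, 8.70% of the lower and 24.5% of all tested windows, were searched. The AP-1 motif was TGANTCA in 29.5% of the higher, 8.70% of the lower and 9.45% of all tested windows. The nuclear factor I half-site was TTGGCA in 13.6% of the higher, 52.2% of the lower and 18.8% of all tested windows. The homeodomain core was TAATTA in 9.09% of the higher, 26.1% of the lower and 5.79% of all tested windows, and the SOX motif ACAAAG in 29.5% of the higher, 34.8% of the lower and 18.5% of all tested windows. The CREB palindrome TGACGTCA was in 0 of the 44 higher and 0 of the 23 lower windows, and in 1.69% of those tested. The Sp/KLF motif GGGGCGGGG was in 0, 0 and 9.63% of them. The MEF2 motif TAAAAATAG was in 0, 4.35% and 1.08%. Gene starts made up 2.27% of the higher, 4.35% of the lower and 25.5% of the tested regions, so the tested regions are not a matched base. The part of this difference in the motif shares was not tested.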

How the data were processed

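Nuclei of 4 libraries, 2 for each diet, were measured with a multiome assay that reads RNA and accessible chromatin together. The deposited matrices held UMI counts per gene and Tn5 counts per peak. Per the submitters' processing notes, the authors used Cell Ranger ARC 2.0.1 with mm10. Whether counting used strand was not given in the sources used here. The matrices hold barcodes as the cell caller gave them, and the gene, mitochondrial and chromatin filters were applied here.

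Nuclei were chosen by the count rule given in the report, and counts were summed by library and group. Peaks were merged across libraries into 253748 regions, of which those with a peak in all 4 libraries were used. Chromatin counts were also summed over each gene body and 2 kb upstream. Tests used edgeR 4.0.16 (TMM scaling, filterByExpr, quasi-likelihood test, Benjamini-Hochberg adjustment) in R 4.3.3, with the library as a block between nuclei of the same libraries. Calls of genes, by RNA or accessibility, needed at least a 1.2-fold change, and calls of regions had no fold minimum. DESeq2 1.42.0 was an alternative. The edgeR comparisons under the main rule, and not those under the wider gate, were also run on simulated data. Doublet scores came from Scrublet in scanpy 1.11.5 with an expected rate of 0.03, and no nucleus was removed. Replicate numbers were not used to pair libraries in the main tests, and a replicate block was an alternative for the diet.

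The genes named were those called with the same sign in all 4 libraries and at least 20 CPM in the higher group (12 and 12 with the largest changes against other GABA nuclei, 8 and 8 against Lhx6 nuclei without Sst), the 5 and 5 with the smallest p whose diets did not overlap, and genes of 23 lists. The nuclei, lists and tests were chosen with earlier results of these data known. Gene positions came from GENCODE M21, which matched 31372 of 32285 features, and sequences from RefSeq GRCm38.p6. The study tested single nuclei, whereas libraries are the replicates here. Some genes that met these rules are not reported here, though the counts include them. Intervals cover counting error only.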

Additional observations from a re-analysis of the deposited data

How the results depend on the processing

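Checks over all alternatives covered the called genes named. Against other GABA nuclei they also covered the start regions of Lhx6 and Adarb2, which were not called. There the log2 fold changes stayed on the same side of the threshold in 803 checks and lost the call in 80. Against Lhx6 nuclei without Sst they did so in 664 and 96. No sign was reversed in either comparison. The 63 and 60 checks with no fold minimum could not lose a call. A gene without an adjusted p under an alternative is in none of these counts. The 277 genes called against other GABA nuclei became 442 with no low-count filter, 179 without the library block, 82 on nuclei matched on UMIs (78 of them shared with the 277), and 166 to 292 when 1 library was left out. They became 404 with Lhx6 not required (242 of them shared with the 277). The 250 called against Lhx6 nuclei without Sst became 382 with no low-count filter, 164 with DESeq2, and 145 to 232 when 1 library was left out. The diet count of 0 became 24 with no low-count filter, 5 with the replicate block, and 0 to 55 when 1 library was left out. The interaction count of 0 became 17 with no low-count filter, 1 with DESeq2, 3 on matched nuclei, 1 with Lhx6 not required (Tshz2, log2 difference 3.61), and 11 to 37 when 1 library was left out. The count of 0 regions against other GABA nuclei became 757 with no low-count filter, 12 with DESeq2, 31 without the library block and 67 with Lhx6 not required, and was 0 whichever library was left out. For regions between diets the count of 0 became 3 with the replicate block and 0 to 10 when 1 library was left out. Gene accessibility against other GABA nuclei went from 0 to 3 without Scrublet scores over 0.05, 1 with at least 5 Sst UMIs, 1 on nuclei matched on chromatin counts, 68 with Lhx6 not required and 0 to 4 when 1 library was left out. Against Lhx6 nuclei without Sst it went from 8 to 0 with DESeq2, 5 without Scrublet scores over 0.05 and 0 to 4 when 1 library was left out. The cause was not tested for any of these. In the diet and interaction tests, leaving out a library left 1 library in a diet. Those counts therefore rest on very little spread between libraries. The HF minus MF share among GABA nuclei reversed to -0.242 points when thinned (2.40 with the replicate block, 1.45 to 3.35 when 1 library was left out). Among all retained nuclei it reversed to -0.0212 with 1 Sst UMI required, -0.0478 with Lhx6 not required, -0.0228 when thinned and -0.0201 without Scrublet scores over 0.05 (0.0694 with the replicate block, 0.0318 to 0.107 when 1 library was left out).

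Across 4118 genes, deviations from the diet means were not correlated between same-numbered libraries (r = -0.0134). The summed ribosomal protein, oxidative phosphorylation and haemoglobin and choroid plexus genes were nevertheless higher in replicate 1 than in replicate 2 of both diets, in the Sst-Lhx6 and in the other GABA nuclei. The labels tie the numbers to no shared batch, so whether they pair the libraries is not settled here, and the replicate block moved diet calls as given above. The simulated data, with changes placed in the more abundant genes, gave the share of placed changes that each test recovered. Changes in genes that were not tested counted as missed. Of 2-fold changes, the test against other GABA nuclei recovered 59% with 9053 genes tested. That against Lhx6 nuclei without Sst recovered 37% with 3994 tested, and the interaction test 1% with 10013 tested.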
